A study of Mus musculus with 54 samples.

Results

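The midbrain marker genes described here are Shox2, Lhx9, Lhx2, Pax7, Gata3, Tal1, Pou4f1, Slc17a6, Cpne5 and Cdhr1. These 10 genes were taken by name from the deposited tables of log2 CPM, that is read counts scaled to library size, out of 21048 features listed in any of the 3 tables, and all 10 were listed at each of the 3 ages. They had been picked with results of these data in view, as markers of midbrain tissue that may come along with a dissected cerebellum or as genes that differed in P28 Rnaseh2b/Atm. The genes were thus chosen by their levels in P28 Rnaseh2b/Atm and at P5, and those levels are given as a description with no p value. Tests are given for Rnaseh2b against control at 9 weeks and at P28, and for the P28 libraries labelled Atm against control. The P28 controls are the same libraries in every P28 comparison.

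RNA from whole mouse cerebellum was sequenced in 54 libraries. At P28 there were 5 libraries each from RnaseH2B,Atm Nes-cre (here Rnaseh2b/Atm), RnaseH2B Nes-cre (Rnaseh2b), Atm Nes-cre and control mice, made from poly-A RNA. At 9 weeks there were 7 Rnaseh2b and 7 control libraries of total RNA. At P5, also from total RNA, there were 4 Rnaseh2b/Atm, 4 RnaseH2B,p53 Nes-cre (Rnaseh2b/p53), 3 Rnaseh2b, 3 Atm, 3 p53 Nes-cre and 3 control libraries. Nes-cre expresses Cre recombinase under Nestin control in neural progenitors, and what alleles the controls carried is not given in the sources used here. RNase H2 takes single ribonucleotides out of genomic DNA, and ATM and p53 act in the response to DNA damage. Nothing in the labels ties a library to an animal of its own, and the p values below measure the spread between libraries, which may be technical.

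Reads in genes were 24.1 to 89.7 M per library at P28, and 48.2 to 95.1 M at P5 apart from Rnaseh2b/p53 3 with 711 M. Depth at 9 weeks was not recoverable from the deposited values. Rnaseh2b transcript averaged 0.90 ± 0.24 log2 CPM in Rnaseh2b/Atm and 1.12 ± 0.18 in Rnaseh2b, against 2.84 ± 0.09 in control at P28 (SD, n = 5 each). It averaged 2.45 ± 0.23 in Rnaseh2b against 3.47 ± 0.14 in control at 9 weeks (n = 7 each), and 2.01 ± 0.13 in Rnaseh2b against 4.27 ± 0.46 in control at P5 (n = 3 each). Atm transcript averaged 4.05 ± 0.05 log2 CPM in P28 Rnaseh2b/Atm and 4.79 ± 0.15 in the libraries labelled Atm, against 4.83 ± 0.06 in control. A whole-gene level may not show a deletion of a few exons, and the genotype of the libraries labelled Atm rests on their labels. For the midbrain marker genes, control 2 and Rnaseh2b 5 at P28 stood apart from their group, low for most of the genes. At P5 2 groups were split, with Rnaseh2b 2 and 3 (2 of 3 libraries) and Rnaseh2b/Atm 1 and 2 (2 of 4) low for most of the genes. Atm 1 was among the 5 highest P5 libraries for all 10 genes, and control 2 for 7 of them.

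The dorsal midbrain, or tectum, lies just in front of the cerebellum, and both grow out on either side of the isthmus in the embryo. Pax7 marks the dorsal midbrain, Lhx2, Lhx9 and Pou4f1 are transcription factors of midbrain and diencephalic neurons, and Tal1 and Gata3 act with Gata2 in precursors of midbrain GABA neurons. Slc17a6 encodes VGLUT2, which loads glutamate into the synaptic vesicles of midbrain, thalamic and brainstem neurons, while mature cerebellar granule neurons mostly use VGLUT1, encoded by Slc17a7. Several of the genes are also known elsewhere: Tal1 and Gata3 in blood cells, Pax7 in muscle satellite cells, Cdhr1 in photoreceptors and olfactory mitral cells, and Slc17a6 in neurons of the cerebellar nuclei.

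The 250 bases before the start of transcription are shown for 2 neuronal transcription factors whose levels spread widely, Lhx9 and Shox2, and for the GABA lineage pair Gata3 and Tal1. They come from RefSeq on GRCm38.p6, are written 5′ to 3′ on the gene's strand, and have in capitals each match to GATAA, the motif of GATA factors, on either strand (TTATC on the other).
Lhx9, chr1:138842445-138842694, minus strand: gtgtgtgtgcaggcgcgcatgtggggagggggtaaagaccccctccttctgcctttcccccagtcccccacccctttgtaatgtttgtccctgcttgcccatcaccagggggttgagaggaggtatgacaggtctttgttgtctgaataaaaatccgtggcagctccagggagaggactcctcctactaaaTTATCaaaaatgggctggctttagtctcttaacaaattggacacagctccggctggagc
Shox2, chr3:66981772-66982021, minus strand: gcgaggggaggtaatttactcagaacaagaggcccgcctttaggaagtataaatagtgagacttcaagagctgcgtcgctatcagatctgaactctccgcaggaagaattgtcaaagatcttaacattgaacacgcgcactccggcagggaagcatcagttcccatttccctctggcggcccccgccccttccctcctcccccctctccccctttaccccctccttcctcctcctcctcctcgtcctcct
Gata3, chr2:9878601-9878850, minus strand: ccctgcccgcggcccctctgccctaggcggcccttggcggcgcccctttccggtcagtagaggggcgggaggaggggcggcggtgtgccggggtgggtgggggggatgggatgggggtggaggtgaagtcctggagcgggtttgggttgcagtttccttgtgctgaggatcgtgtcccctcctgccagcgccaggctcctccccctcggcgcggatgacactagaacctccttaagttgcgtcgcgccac
Tal1, chr4:115056176-115056425, plus strand, upstream of the first of 2 starts: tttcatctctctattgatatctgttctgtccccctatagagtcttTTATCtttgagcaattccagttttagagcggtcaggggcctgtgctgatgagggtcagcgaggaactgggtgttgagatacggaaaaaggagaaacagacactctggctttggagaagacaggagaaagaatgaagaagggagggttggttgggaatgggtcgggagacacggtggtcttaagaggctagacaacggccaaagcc
Lhx9 and the first Tal1 start each held 1 GATAA match, while Shox2 and Gata3 held none in this window. Over the same window of 250 bases before the start, 22.6% of 32851 RefSeq mouse promoters held GATAA, as did 2 of 13 windows of the 10 genes. CAGCTG, an E-box of the kind TAL1 complexes bind, was in 13% of all promoters and in 1 of the 13 windows, that of Pou4f1. TAATTA, a core of homeodomain sites, was in 4.84% of all promoters and in 1 of the 13, the second start of Slc17a6. The 13 windows held 3 to 47 CpG and 41.2% to 78.0% G or C, against medians of 6 CpG and 52.4% over all promoters.

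At P28 every midbrain marker gene was higher in every Rnaseh2b/Atm library than in every library of the other 3 groups. The group medians ran in the same order for all 10 genes, from Rnaseh2b/Atm at the top through Rnaseh2b and control to the libraries labelled Atm. The summed level of the 10 genes was 251 to 443 CPM in Rnaseh2b/Atm, 33.6 to 146 in Rnaseh2b and 14.1 to 45.7 in libraries labelled Atm, against 16.9 to 72.3 in control. These contrasts chose the genes, and the background of the comparison with control is wide, since 63.6% of 16530 genes tested were called at an adjusted p below 0.05, and 23.5% had every Rnaseh2b/Atm library above every control (18.5% for the comparison with Rnaseh2b and 21.5% for that with libraries labelled Atm). In bulk tissue, fewer cells of a type and less RNA per cell cannot be told apart.

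Slc17a6, the vesicular glutamate transporter, was the most abundant of the 10 per transcript length, at 45.7 ± 9.55 FPKM in Rnaseh2b/Atm against 6.69 ± 2.58 FPKM in control (SD, n = 5 each). Its log2 CPM was 7.64, 7.16, 7.87, 7.40 and 7.85 in Rnaseh2b/Atm, against 5.34, 3.74, 4.93, 5.24 and 4.54 in control. The lowest Rnaseh2b/Atm library stood 0.78 log2 above the highest library of any other group, the widest gap among the 10 genes. The level differed by 2.83 ± 0.33 log2 (limma, SE).

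Shox2, a homeobox factor, followed at 7.71 ± 1.70 FPKM in Rnaseh2b/Atm against 1.03 ± 0.72 in control. Its log2 CPM was 5.0, 4.33, 5.15, 4.65 and 5.01 in Rnaseh2b/Atm, against 2.81, -5.37, 2.12, 2.54 and 1.39 in control. Control 2 held 1 read of Shox2 where the other controls held up to 599, and the difference of 4.13 ± 1.73 log2 carried the widest error of the set. Lhx9, a LIM homeobox factor, was at 5.12, 4.58, 5.44, 4.82 and 5.31 log2 CPM in Rnaseh2b/Atm, against 2.97, -0.94, 2.84, 2.91 and 2.18 in control. Again control 2 lay far below the other controls, and the groups did not overlap.

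Pax7, the paired-box factor of the dorsal midbrain, had the largest difference from control, 6.01 ± 1.12 log2. It was at 3.73, 3.33, 4.31, 2.54 and 3.75 log2 CPM in Rnaseh2b/Atm, from 372 to 1289 reads, against 0.13, -5.37, -2.31, -1.18 and -3.66 in control, from 1 to 93 reads. Mean FPKM was 34.3 times that of control, and Rnaseh2b/Atm 4 was the lowest and Rnaseh2b/Atm 3 the highest of the 5. Pou4f1, a POU-domain factor of sensory and midbrain neurons, was at 2.71, 2.04, 3.18, 1.59 and 2.78 log2 CPM in Rnaseh2b/Atm, against -0.90, -4.67, -2.31, -0.90 and -4.02 in control. That is a difference of 5.02 ± 0.69 log2, and no control library reached 1 CPM.

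Both factors of the GABA lineage were higher too. Tal1, a basic helix-loop-helix factor, was at 4.06, 3.64, 4.45, 3.28 and 4.07 log2 CPM in Rnaseh2b/Atm, against 1.88, 0.62, 1.56, 1.63 and 1.17 in control, a difference of 2.52 ± 0.33 log2. Gata3, a zinc-finger factor, was at 3.20, 2.54, 3.79, 2.09 and 3.37 log2 CPM in Rnaseh2b/Atm, against 0.33, -3.85, -0.94, -0.49 and -2.74 in control, a difference of 4.54 ± 1.01 log2. Tal1 varied least of the 10 genes among the controls (SD 0.49 log2), while the SD of Gata3 was 1.71. Lhx2, a LIM homeobox relative of Lhx9, differed by 2.89 ± 1.0 log2, with the narrowest gap between the lowest Rnaseh2b/Atm library and the highest other library, 0.14 log2. Cpne5, a calcium-dependent membrane-binding copine, differed by 2.85 ± 0.78 log2, and Cdhr1, a cadherin-related protein, by 3.60 ± 0.65. Mean FPKM ratios to control ran from 5.83 for Tal1 to 34.3 for Pax7, and Rnaseh2b/Atm 3 was the highest library for 9 of the 10 genes, with Rnaseh2b/Atm 5 the highest for Cdhr1.

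**Figure D1:**
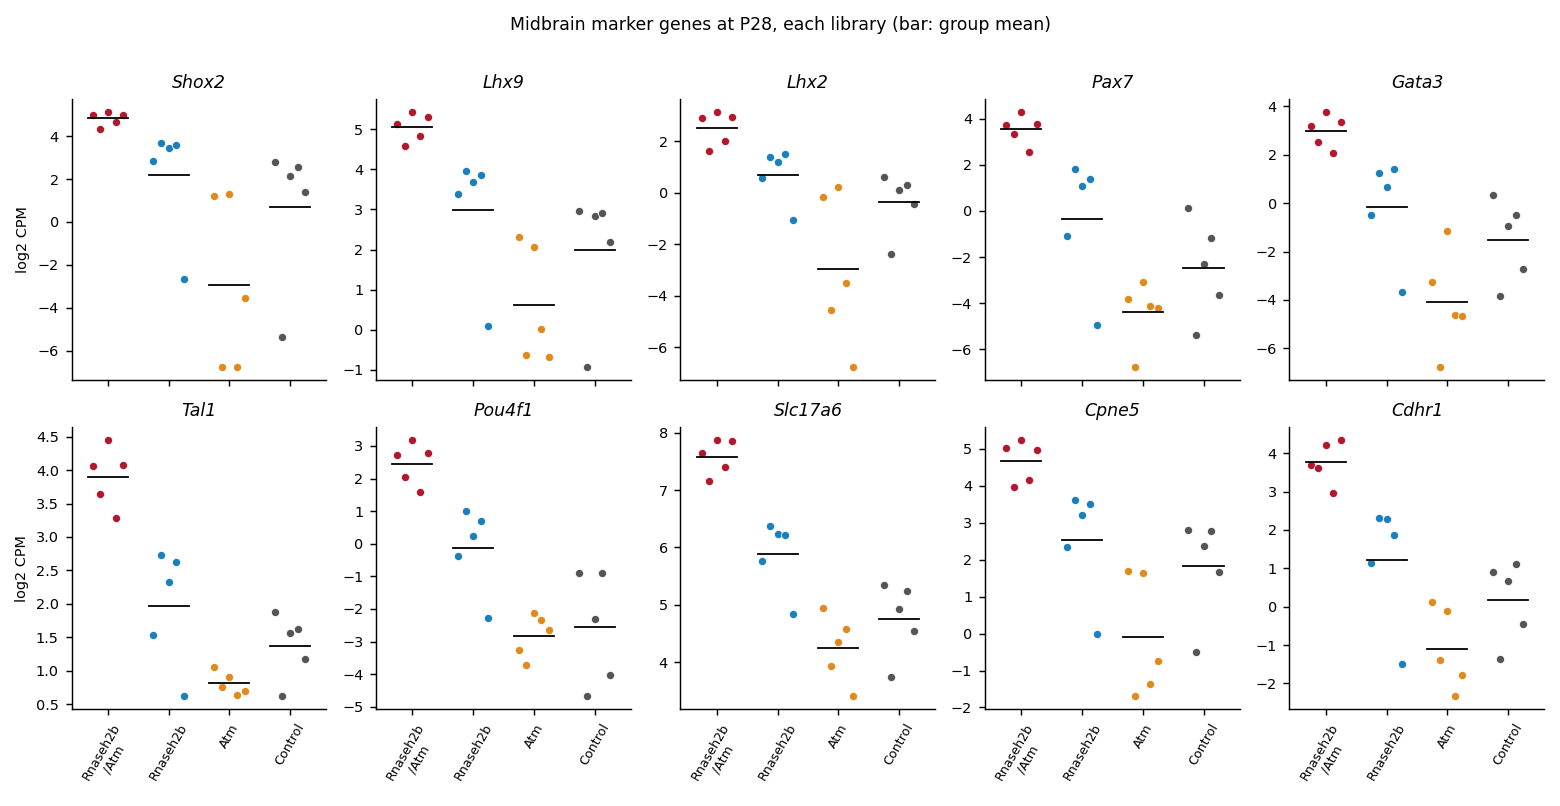
Level of each midbrain marker gene at P28 in log2 CPM, 1 point per library and a bar at the group mean, with Rnaseh2b/Atm, Rnaseh2b, libraries labelled Atm and control from left to right (5 libraries each). Every Rnaseh2b/Atm point lies above every other point of its panel, and Rnaseh2b 5 and control 2 lie far below the rest of their groups for Shox2 and Lhx9.

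Against the Rnaseh2b libraries, the Rnaseh2b/Atm libraries were higher by 1.70 (Slc17a6) to 3.89 (Pax7) log2, with the widest errors for Shox2 (2.64 ± 1.73) and Pax7 (3.89 ± 1.12). No test of the 10 genes is given for these contrasts, which chose them. Over all genes, 49.5% were called against Rnaseh2b and 61.0% against libraries labelled Atm. Shox2 had 0 reads in Atm 2 and Atm 4, Lhx2 had 0 in Atm 5, and Pax7 and Gata3 had 0 in Atm 2, so fitted differences for these genes depend on the prior count of the deposited log2 CPM. Among genes with reads in every library, Slc17a6 was 3.34 ± 0.33 and Tal1 3.08 ± 0.33 log2 higher than in libraries labelled Atm.

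Rnaseh2b against control at P28 asked whether the single mutant also differed. Slc17a6 rose by 1.13 ± 0.33 log2 (limma, adjusted p = 0.04997, just below the threshold of 0.05). With no filter on low values its adjusted p was 0.0557 (limma). It was also not called with no variance trend, by voom or with only the groups compared, so the call depends on the settings. Pou4f1, Pax7 and Gata3 met the filter, 1 CPM in at least 5 libraries, only with the help of the Rnaseh2b/Atm libraries in which they are high. Their differences of 2.42 ± 0.69, 2.12 ± 1.12 and 1.37 ± 1.01 log2 are therefore given as values, with no test from that fit. With no filter none of the 3 was called, at limma adjusted p of 0.0538, 0.254 and 0.412. The other 6 genes had differences from 0.60 (Tal1) to 1.49 (Shox2) log2 that were not called, with limma adjusted p from 0.253 to 0.594. The background was 5.21% of all genes tested called, and 2.85% of all genes tested called higher.

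No gene of the 10 separated Rnaseh2b from control at P28, where 3.43% of genes tested had every Rnaseh2b library above every control. Slc17a6 was at 5.76, 6.38, 6.24, 6.21 and 4.84 log2 CPM in Rnaseh2b, so that Rnaseh2b 5 fell inside the range of the controls, which ran up to 5.34. Pou4f1 was at -0.38, 1.01, 0.24, 0.69 and -2.28 log2 CPM in Rnaseh2b, and again only Rnaseh2b 5 lay below the highest control, at -0.90. Shox2 was at 2.85, 3.69, 3.46, 3.58 and -2.65 log2 CPM in Rnaseh2b, where 4 libraries stood above the highest control and the last, with 13 reads, stood below 4 of the 5 controls. Lhx9 was at 3.38, 3.96, 3.69, 3.85 and 0.09 log2 CPM and Tal1 at 1.54, 2.73, 2.33, 2.62 and 0.62, with the same library lowest. Rnaseh2b 5 was among the 5 lowest of all 20 P28 libraries for 8 of the 10 genes, and its granule neuron sum of 5543 CPM was the highest of the Rnaseh2b libraries.

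Single libraries decided the call. Without Rnaseh2b 5, Slc17a6 rose by 1.39 ± 0.30 log2 (limma, adjusted p = 0.0132) and Tal1 by 0.93 ± 0.27 (adjusted p = 0.0439). Without any 1 of the other Rnaseh2b libraries or of the controls, neither was called. Without control 2 the difference of Shox2 was -0.03 ± 1.55 log2.

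In the P28 libraries labelled Atm, no gene of the 10 that met the filter without Rnaseh2b/Atm was called against control (limma, and 0 by voom). Shox2, Lhx2 and Cpne5 were at an unadjusted p below 0.05 (limma). Pou4f1, Pax7 and Gata3 met the filter only with the help of Rnaseh2b/Atm here too, so their differences are given as values with no test. All 10 differences were negative, from -0.26 ± 0.69 log2 for Pou4f1 to -3.63 ± 1.73 for Shox2. The limma adjusted p of the genes tested were 0.200 or more, where 1.86% of all genes were called. Shox2 was at 1.19, -6.79, 1.32, -6.79 and -3.57 log2 CPM in libraries labelled Atm, of which both values of -6.79 stand for 0 reads. Slc17a6 was at 4.95, 3.94, 4.36, 4.58 and 3.41 log2 CPM in them, inside the span of the controls but for Atm 5. Pax7 had 0 to 3 reads in libraries labelled Atm against 1 to 93 in control, and all 10 genes overlapped between both groups, where 1.92% of genes tested had every library labelled Atm below every control. Without control 2 Cpne5 was called (limma, adjusted p = 0.0494). The sign for Pou4f1 turned under quantile normalization (0.57) and without control 1 or control 4 (0.16 each).

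**Figure D2:**
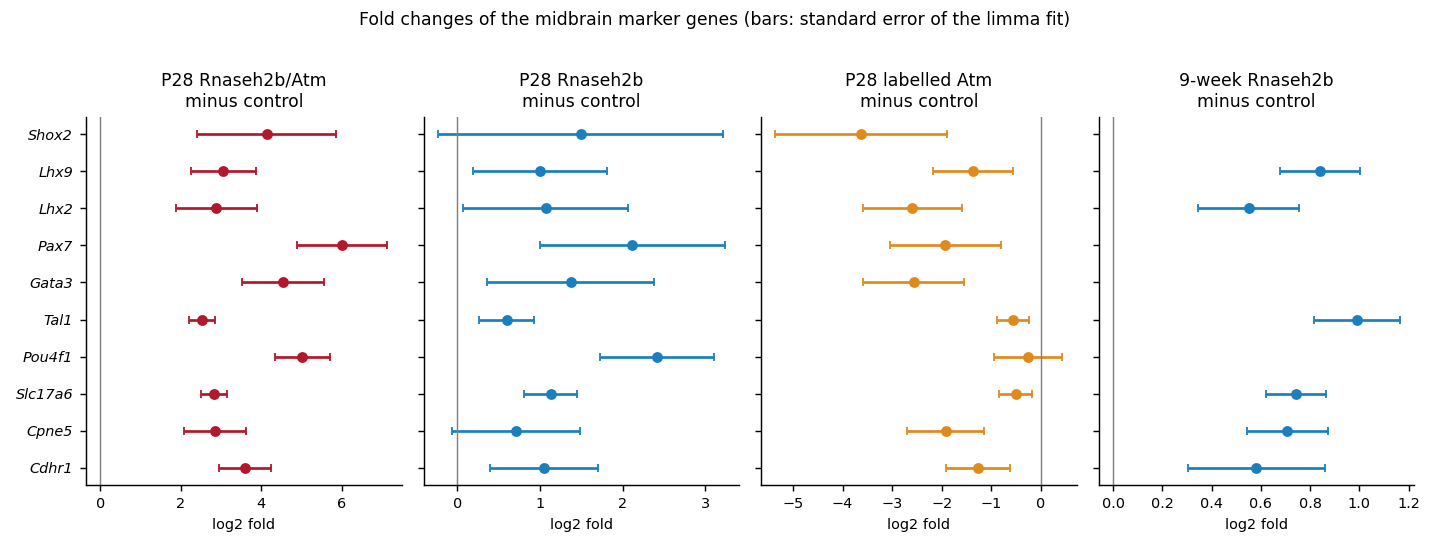
Differences in log2 level with limma standard errors for each midbrain marker gene, from left to right P28 Rnaseh2b/Atm, P28 Rnaseh2b, P28 libraries labelled Atm and 9-week Rnaseh2b, each minus control of its age. All points of the first panel lie above 0 by construction of the gene choice, those of the third below 0, and the 9-week panel holds the 6 genes that passed the filter on low values.

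At 9 weeks the single mutant held more transcript of most of these genes. This age is not named in the choice of the genes, although its results were known. Of the 6 genes that passed the filter, Lhx2 and Cdhr1 reached 1 CPM in 5 control libraries, where 7 libraries were needed. They passed only with the help of the Rnaseh2b libraries, in which they are higher, and are given below as values. The other 4, Slc17a6, Tal1, Lhx9 and Cpne5, reached 1 CPM in all 14 libraries. All 4 rose in Rnaseh2b against control, where 20.2% of 15078 genes were called and 10.6% rose. Every Rnaseh2b library was above every control for Slc17a6, Tal1, Lhx9 and Pou4f1, that is for 4 of all 10 genes. Of the 15078 genes tested, which leave out Pou4f1, Shox2, Pax7 and Gata3, 2.43% were so placed. The median difference was 0.73 log2 over the 6 genes and 0.00 over all genes.

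Slc17a6 ran from 6.55 through a median of 6.75 to 7.06 log2 CPM in Rnaseh2b, against 5.42, 6.15 and 6.34 in control (lowest, median and highest of 7). It rose by 0.74 ± 0.12 log2 (limma, adjusted p = 0.00121). Tal1 ran from 1.73 through 1.96 to 2.48 log2 CPM in Rnaseh2b, against 0.25, 1.06 and 1.47 in control, and rose by 0.99 ± 0.17 (limma, adjusted p = 0.00172). For both genes control 2 or control 4 was the lowest library of all, and Rnaseh2b 5 or Rnaseh2b 3 the highest.

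Lhx9 ran from 3.46 through 3.71 to 4.11 log2 CPM in Rnaseh2b, against 2.23, 2.93 and 3.41 in control, and rose by 0.84 ± 0.16 log2 (limma, adjusted p = 0.00311). Cpne5 ran from 2.28 through 2.85 to 3.27 log2 CPM in Rnaseh2b, against 1.68, 1.95 and 2.54 in control, and rose by 0.71 ± 0.16 (limma, adjusted p = 0.00854), with the groups overlapping. Lhx2 differed by 0.55 ± 0.21 log2 and Cdhr1 by 0.58 ± 0.28, given as values with no test from that fit. With no filter neither was called, at limma adjusted p of 0.0707 and 0.152. Without Rnaseh2b 6 or without control 5, the difference of Lhx2 was 0.68 and 0.65 log2.

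The remaining 4 genes were too low for the filter of 1 CPM in at least 7 libraries. Pou4f1 ran from -0.26 through 0.14 to 1.08 log2 CPM in Rnaseh2b, against -2.27, -1.75 and -0.40 in control. Pax7 ran from -1.26 through 0.41 to 1.45 in Rnaseh2b, against -5.48, -1.40 and -0.53 in control, and Gata3 from -1.32 through -0.06 to 1.01, against -3.32, -1.22 and -0.88. Shox2 was similar in both groups, from -2.64 through -1.59 to -0.55 in Rnaseh2b and from -2.75 through -1.87 to -0.56 in control. With no filter these genes were tested too, and Pou4f1 (1.75 ± 0.30 log2), Gata3 (1.65 ± 0.39) and Pax7 (2.42 ± 0.69) were called higher, with limma adjusted p of 0.00159, 0.00996 and 0.0239, but not Shox2 (0.38 ± 0.34, adjusted p = 0.453).

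The 9-week libraries fall into 2 sets by the codes in their labels, which the deposited values had been adjusted for. Within codes 11 to 16 (3 Rnaseh2b and 3 control) Lhx9 rose by 1.03 ± 0.26 log2 (limma, adjusted p = 0.0487), Tal1 by 1.31 ± 0.29 (adjusted p = 0.0329) and Slc17a6 by 0.79 ± 0.12 (adjusted p = 0.0172), while Cpne5 differed by 0.85 ± 0.26 (adjusted p = 0.0766). Within codes 50 to 58 (4 and 4) none of these 4 genes was called. The differences there were 0.70 ± 0.17 for Lhx9, 0.75 ± 0.18 for Tal1, 0.71 ± 0.18 for Slc17a6 and 0.60 ± 0.19 for Cpne5, with limma adjusted p from 0.0892 to 0.163. These 4 genes differed in the same direction in both sets.

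**Figure D3:**
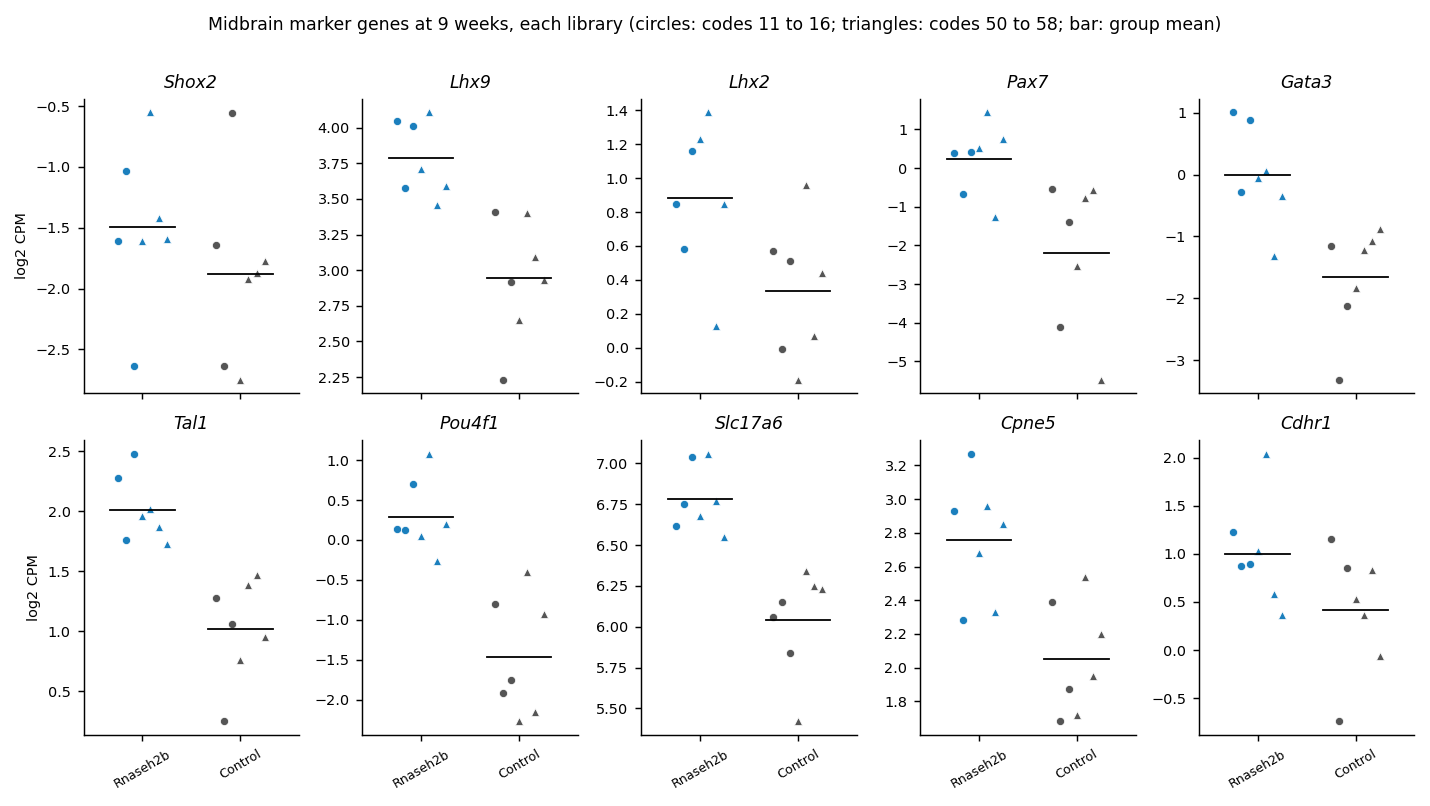
Level of each midbrain marker gene at 9 weeks in log2 CPM, 1 point per library with Rnaseh2b left of control (7 libraries each), circles for codes 11 to 16, triangles for codes 50 to 58 and a bar at the group mean. The groups do not overlap for Lhx9, Tal1, Pou4f1 and Slc17a6 and overlap almost wholly for Shox2.

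At P5 Lhx9, Lhx2, Pax7 and Pou4f1 spread widely between libraries within Rnaseh2b/Atm and within Rnaseh2b. The p53 and Rnaseh2b/p53 libraries lay closer together for these genes. The range over all 20 libraries was 1.40 log2 for Slc17a6 and up to 4.72 log2 for Pax7. Lhx9 was at 2.69, 5.12, 6.73 and 6.52 log2 CPM in Rnaseh2b/Atm, 5.94 to 6.14 in Rnaseh2b/p53, 5.62, 3.01 and 2.24 in Rnaseh2b, 6.61, 6.02 and 5.83 in libraries labelled Atm and 6.18, 5.90 and 5.90 in p53, against 5.92, 6.05 and 5.64 in control. The low values were Rnaseh2b/Atm 1 and Rnaseh2b 2 and 3, while all other libraries held at least 5.12.

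Pax7 showed the same split, at 0.31, 0.16, 3.67 and 3.71 log2 CPM in Rnaseh2b/Atm and 2.67, -0.78 and -0.28 in Rnaseh2b, against 2.94, 3.22 and 2.50 in control. In reads that is 143, 125, 1363 and 1379 in Rnaseh2b/Atm and 780, 62 and 64 in Rnaseh2b, against 556, 652 and 604 in control. Rnaseh2b/Atm 1 and 2 and Rnaseh2b 2 and 3 were low, and the other libraries of both groups were within or above the control range. Slc17a6 moved little, at 7.40, 7.67, 7.93 and 8.12 log2 CPM in Rnaseh2b/Atm and 7.55, 7.62 and 7.08 in Rnaseh2b, against 7.49, 8.32 and 7.75 in control.

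No test of the 10 genes is given at P5. Over all genes, 9.86% were called against control for Rnaseh2b/Atm, 0.428% for Rnaseh2b/p53, 0.681% for Rnaseh2b, 0.0% for libraries labelled Atm and 0.175% for p53 (limma). Rnaseh2b averaged lower than control for all 10 genes, from -0.44 ± 0.23 log2 for Slc17a6 to -2.34 ± 0.90 for Pax7, with a median of -1.18 log2. Every Rnaseh2b library was below every control for Lhx9, Tal1 and Pou4f1, 3 of 10 genes, where 5.6% of 15421 genes tested were so placed. Rnaseh2b 3 was the lowest of the 20 libraries for 8 genes, and Rnaseh2b/Atm 1 was among the 5 lowest for all 10. At the other end, Atm 1 was the highest library for 7 genes and Rnaseh2b/Atm 3 for the remaining 3. Median differences from control were -0.44 log2 in Rnaseh2b/Atm, 0.04 in Rnaseh2b/p53, 0.33 in libraries labelled Atm and 0.01 in p53, and the P5 controls are shared by these comparisons.

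**Figure D4:**
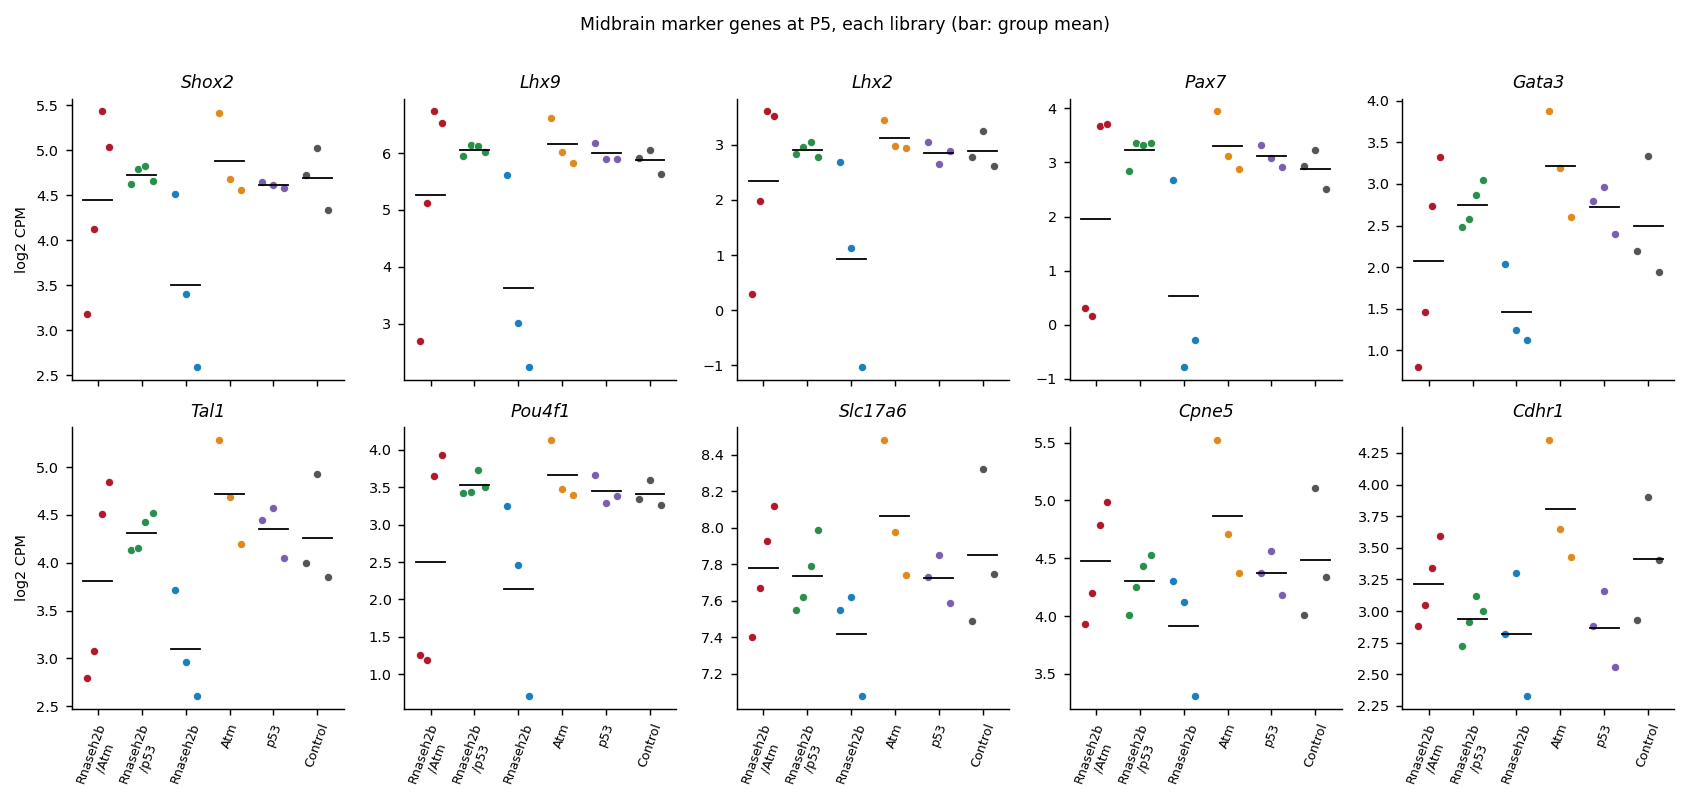
Level of each midbrain marker gene at P5 in log2 CPM, 1 point per library and a bar at the group mean, with Rnaseh2b/Atm (4 libraries), Rnaseh2b/p53 (4), Rnaseh2b, libraries labelled Atm, p53 and control (3 each) from left to right. Rnaseh2b/Atm and Rnaseh2b spread widely for Lhx9, Lhx2, Pax7 and Pou4f1, while Rnaseh2b/p53 and p53 lie close together.

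Slc17a6 was the most abundant of the 10 by mean FPKM in every group. Over the P5 libraries mean FPKM was 67.6 for Slc17a6, 11.2 for Lhx9, 8.5 for Shox2 and 5.68 for Tal1, and the other 6 genes lay between 1.72 (Pax7) and 3.26 (Pou4f1). In P28 Rnaseh2b/Atm Slc17a6 was followed by Shox2, Lhx9 and Tal1 (7.71, 5.04 and 3.58 FPKM), with Lhx2 lowest at 1.42. From Tal1 down, neighbours in the order in P28 Rnaseh2b/Atm differed by less than the SD of the higher one.

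Other genes of the dorsal midbrain lay beside the 10. Of 6 tested at 9 weeks, where 20.2% of all genes tested were called and 10.6% rose, 4 rose in Rnaseh2b against control and none fell. They were Meis2, a homeobox factor (0.90 ± 0.15 log2, limma adjusted p = 0.00126), Pou4f2, a POU-domain relative of Pou4f1 (0.87 ± 0.18, adjusted p = 0.00455), Tfap2d, an AP-2 factor (0.79 ± 0.16, adjusted p = 0.00476), and Tcf7l2, a Wnt pathway factor (0.50 ± 0.08, adjusted p = 0.000848). At P28 1 of 7 rose in Rnaseh2b, Dmbx1, a homeobox factor of the midbrain (1.03 ± 0.28, limma adjusted p = 0.0374), where 2.85% of all genes rose. In P28 Rnaseh2b/Atm Dmbx1 (3.36 ± 0.28 log2), Meis2 (2.67 ± 0.49), Tcf7l2 (2.05 ± 0.55) and Pou4f2 (3.73 ± 1.25) were called higher than control and Barhl2 lower (-2.03 ± 0.11), while Tfap2d was not called (3.22 ± 1.67). Over all genes tested, 63.6% were called in that comparison in either direction. Barhl2, a homeobox factor also known in granule neurons, averaged 3.45 ± 0.11 log2 CPM in Rnaseh2b/Atm against 5.47 ± 0.10 in control (SD, n = 5 each).

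Of the other genes of the GABA lineage, 1 of 4 tested rose at 9 weeks, Gad2, an enzyme of GABA synthesis (0.24 ± 0.07 log2, limma adjusted p = 0.0179). At that age 10.6% of all genes tested rose. None of 6 was called in P28 Rnaseh2b against control (limma, Gad2 alone at an unadjusted p below 0.05). In P28 Rnaseh2b/Atm 4 of 6 were called higher than control, among them Sox14, a factor of GABA neurons (3.67 ± 0.81), and Gata2, the partner of Gata3 and Tal1 (0.90 ± 0.15), and Nkx2-2 was called lower (-0.97 ± 0.24). These counts stand beside 63.6% of all genes tested called there in either direction. Of the partners of LIM homeobox factors, Lmo3 (0.87 ± 0.13 log2, limma adjusted p = 0.000561) and Ldb2 (0.61 ± 0.10, adjusted p = 0.00150) were the 2 of 6 that rose at 9 weeks, and Lmo3 alone rose in P28 Rnaseh2b (1.07 ± 0.28, adjusted p = 0.0345). Slc17a7, the transporter that granule neurons use, fell by 0.38 ± 0.07 log2 at 9 weeks (limma, adjusted p = 0.00238), opposite to Slc17a6.

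Granule neuron genes moved the other way in the same libraries. Their summed level was 1374 to 2791 CPM in P28 Rnaseh2b/Atm against 5470 to 6254 in control, and 9 of 10 were called lower there, where 63.6% of all genes tested were called in either direction. At 9 weeks it was 1704 to 2712 CPM in Rnaseh2b against 2859 to 3656 in control, where Gabra6, the GABA receptor subunit of granule neurons, fell by 0.47 ± 0.11 log2 (limma, adjusted p = 0.00725) and 5 of 10 fell in all, with none rising, beside 20.2% of all genes called in either direction. In P28 Rnaseh2b it was 4583 to 5543 CPM against 5470 to 6254 in control, with none of 10 called (limma, 2 at an unadjusted p below 0.05). At P5 it was 882 to 1143 CPM in Rnaseh2b against 508 to 1444 in control, again with none called (limma, 0 at an unadjusted p below 0.05). In P5 libraries labelled Atm it ran from 184 to 1542 CPM. The part of the granule neuron level in the levels of the midbrain marker genes was not tested.

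**Figure D5:**
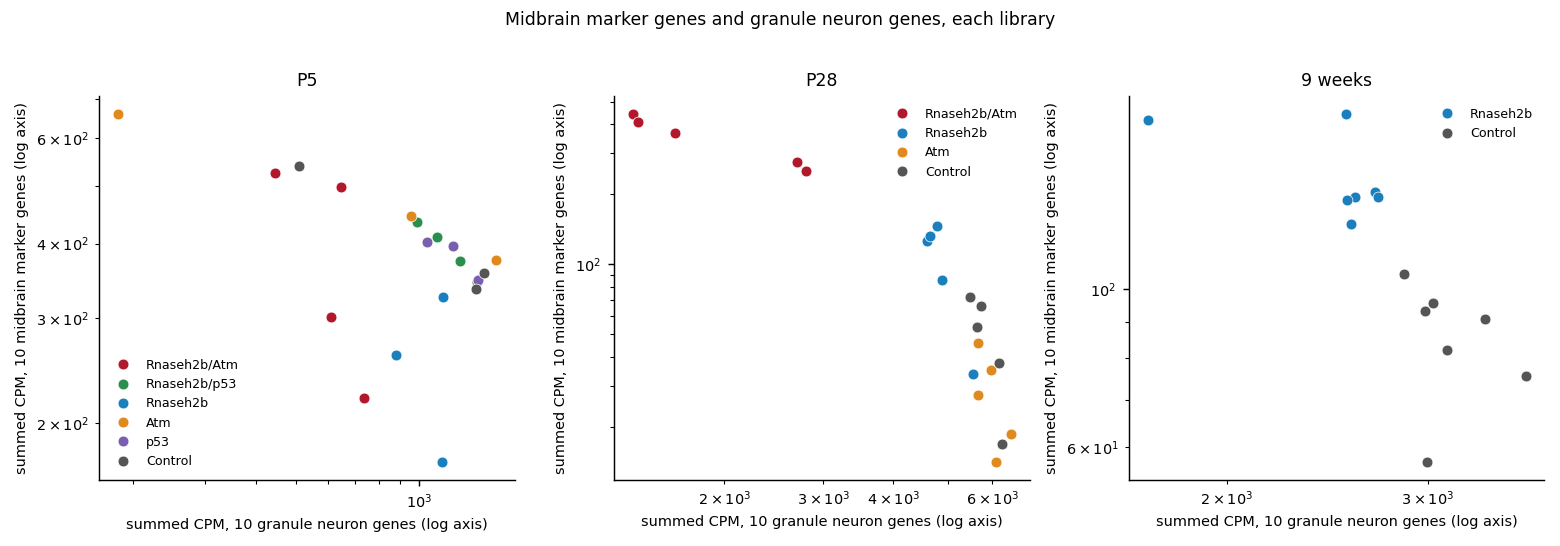
Summed CPM of the 10 midbrain marker genes against summed CPM of 10 granule neuron genes, 1 point per library and log axes, for P5, P28 and 9 weeks. At P28 the Rnaseh2b/Atm libraries lie at 251 to 443 CPM of marker genes and 1374 to 2791 CPM of granule genes, apart from the other groups, and at 9 weeks the Rnaseh2b libraries lie above and to the left of control.

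Genes of the cerebellar nuclei, whose neurons use Slc17a6, summed to 413 to 512 CPM in P28 Rnaseh2b/Atm against 432 to 448 in control, and to 323 to 444 CPM in 9-week Rnaseh2b against 359 to 443 in control. Within that list Spp1, osteopontin, was higher by 1.98 ± 0.18 log2 in P28 Rnaseh2b/Atm and Slc6a5, the glycine transporter of inhibitory neurons, by 0.90 ± 0.11, while Pvalb, parvalbumin, was lower (-0.23 ± 0.07). Purkinje cell genes summed to 5657 to 7632 CPM in P28 Rnaseh2b/Atm against 5320 to 6062 in control, and 1 of 8 rose at 9 weeks, Slc1a6, a glutamate transporter (0.29 ± 0.10 log2, limma adjusted p = 0.0486), where 10.6% of all genes rose. Endothelial genes summed to 151 to 176 CPM in P28 Rnaseh2b/Atm against 127 to 149 in control, and to 80.2 to 113 CPM in 9-week Rnaseh2b against 81.6 to 91.7 in control.

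Genes of other tissues in which these markers are known were measured beside them. Skeletal muscle and satellite cell genes, a setting of Pax7, summed to 8.55 to 15.1 CPM in P28 Rnaseh2b/Atm against 16.7 to 22.9 in control, and to 1.93 to 4.44 CPM in 9-week Rnaseh2b against 2.48 to 3.29 in control. Erythroid genes, a setting of Tal1, summed to 398 to 902 CPM in P28 Rnaseh2b/Atm against 569 to 1777 in control, and to 287 to 557 CPM in 9-week Rnaseh2b against 333 to 509 in control, with none of 5 called at 9 weeks (limma, 0 at an unadjusted p below 0.05). T cell genes, a setting of Gata3, summed to at most 0.75 CPM in any P28 Rnaseh2b/Atm library and to at most 0.55 CPM in control, with Cd4 the only gene of the list in the table. Pineal and photoreceptor genes, a setting of Cdhr1, stayed at or below 1.33 CPM in P28 Rnaseh2b/Atm and 1.05 in control, with 2 of 6 listed at P28. Mitral cell genes of the olfactory bulb, another setting, summed to 17.5 to 30.6 CPM against 16.6 to 47.1. Only 2 of 3 were listed at P28, among them Tbr1, which was also counted with the genes of the cerebellar nuclei. At P5 the muscle sum was 21.3 to 31.5 CPM in Rnaseh2b against 4.90 to 5.73 in control. Of the 6 muscle genes, 3 were listed at P28 and at 9 weeks and 5 at P5. The part of muscle or blood cells in the levels of Pax7 and Tal1 was not tested. Hox genes of the medulla and pons, measured at P5, summed to 12.6 to 75.3 CPM in Rnaseh2b and 0.92 to 47.4 in Rnaseh2b/Atm, against 0.32 to 20.3 in control. None of 10 tested was called in Rnaseh2b, where the midbrain marker genes were lower, or in Rnaseh2b/Atm (limma, 0 at an unadjusted p below 0.05). The part of tissue carried over from a neighbouring region in these levels was not tested.

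The genes moved together from library to library. After subtracting each group's mean, the Pearson r of each gene with the mean of the other 9 ran from 0.62 (Cdhr1) to 0.96 (Shox2) over the 20 P5 libraries, and from 0.77 (Lhx2) to 0.98 (Cpne5) over the 20 P28 libraries. All values of a library share its depth and its dissection, so these are descriptions with no test. Other genes that passed the filter were ranked by r, leaving out gene models with Gm or Rik names and date-like names. Those most like the mean of the 10 at P5 were Runx1t1, Bcl11b and Gda (r = 0.98 each), Camkv (0.97), and L3mbtl3, Accn4, Ldb2, Hs3st3b1, Sox14 and Pla2g3 (0.96 each). At P28 they were Cpne6, Htr1a, Camkv, Sox14, Tac1 and Drd2 (0.98 each) and Tacr1, Zcchc12, Tcf7l2 and Magel2 (0.97 each). Camkv, a kinase-like protein of neuronal vesicles, and Sox14 were in both lists. Single genes had their own nearest patterns. At P5 Lhx9 was most like Nrgn and Emx2 (r = 0.99 and 0.98), Tal1 most like Accn4 and Lmo1 (0.99 and 0.97) and Pax7 most like Sox14 and Irx6 (0.98 and 0.97). At P28 Shox2 was most like Six3 and Tfap2d (0.99 and 0.97), Lhx9 most like Tacr1 and Tcf7l2 (0.98 each), Pax7 most like Emx2 and Magel2 (0.97 and 0.95) and Slc17a6 most like Fam19a1 and Prkg2 (0.97 and 0.95).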

How the data were processed

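Whole cerebellum RNA was measured by sequencing, from total RNA at P5 and 9 weeks and poly-A RNA at P28. The submitters' processing notes name the mm9 build and, as tools, STAR and BWA, HTSeq, limma and Trim Galore, with roles and versions not given in the sources used here. The deposited log2 CPM values were tested as the authors gave them. All of them at P28 and P5 came out as whole reads within 0.01, and voom was run on those reads as an alternative. The deposited FPKM values served to compare genes, and at 9 weeks they had been shifted by the authors to a score with 30976 negative values. These were set to 0 in the alternative fits on FPKM and kept as they were in the mean FPKM. At 9 weeks the authors had also equalised the means of both label code sets (largest difference 3.12e-09 log2 CPM), which can understate the spread there. At P5, 3 rows of the file naming no gene held 19.7% to 31.8% of reads and were left out.

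Genes at 1 CPM or more in at least 7 (9 weeks), 5 (P28) or 3 (P5) libraries were fitted by limma 3.58.1 in R 4.3.3 with a variance trend, all groups of an age together, with Benjamini-Hochberg adjustment over all genes of a comparison and a threshold of 0.05. Levels are means ± SD and differences ± SE, mutant minus control. The 10 genes and the 16 lists beside them were chosen with earlier results of these data known. All 10 genes are named, with called list genes by smallest adjusted p and the 10 genes of highest r. Replicate numbers were checked for pairing by the correlation of deviations of same-numbered libraries. Only P5 p53 and control had every pair above 0.1 (0.26 to 0.55), and blocking there gave 13 genes called, against 27 without the block. The fits were checked on simulated data. Alternatives were FPKM scales, filters, scaling, voom, blocks, fits of fewer groups, code sets and leaving out libraries.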

Additional observations from a re-analysis of the deposited data

Results flagged for a closer look

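Of 80 sets of 1 gene in 1 group of 4 to 7 libraries, 5 had a library whose gap to the next took up most of the group's range, and chance gives about 1 in 20. In P28 Rnaseh2b, replicate 5 was the lowest for Shox2 (-2.65 log2 CPM) and for Lhx9 (0.09). In P28 control, replicate 2 was the lowest for Shox2 (-5.37) and for Lhx9 (-0.94). In P5 Rnaseh2b/p53, replicate 1 was the lowest for Pax7 (2.84). Results with and without Rnaseh2b 5 and control 2 are given with the P28 comparisons.

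Rnaseh2b minus control had opposite signs at 9 weeks and at P5, with every Rnaseh2b library on the stated side of the control mean at each age, for 7 genes. On the log2 scale it was 0.84 at 9 weeks and -2.25 at P5 for Lhx9, 2.42 and -2.34 for Pax7, 1.65 and -1.03 for Gata3, 0.99 and -1.16 for Tal1, 1.75 and -1.27 for Pou4f1, 0.74 and -0.44 for Slc17a6, and 0.71 and -0.58 for Cpne5. At P28 against P5 it was 2.42 and -1.27 for Pou4f1, and 1.13 and -0.44 for Slc17a6. In libraries labelled Atm, Cdhr1 differed from control by -1.27 at P28 and 0.40 at P5. These differences between ages were not tested, the ages were sequenced separately and P28 was made from another kind of RNA.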

How the results depend on the processing

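At 9 weeks 3042 genes and 4 of the 10 were called. With no filter 7 of the 10 were called. Within codes 50 to 58 the counts were 90 genes and 0 of the 10, within codes 11 to 16 1084 genes, and with a replicate block 1390 genes. For P28 Rnaseh2b against control 861 genes were called, among them Slc17a6. None of the 10 was called with FPKM plus 0.1, no filter, only the groups compared, no variance trend and both voom settings. With FPKM plus 1 or a filter of 5 CPM 1 of the 10 was called. Only the groups compared gave 1532 genes there, and 194 against 308 for libraries labelled Atm.

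Leaving out each library in turn gave 1915 to 3251 genes and 4 to 5 of the 10 at 9 weeks. That count takes in Lhx2, which met the filter only with the help of Rnaseh2b. At P28 it gave 187 to 2564 genes for Rnaseh2b and 185 to 1102 for libraries labelled Atm, with both gene counts highest without control 2. Slc17a6 was then called in Rnaseh2b only without Rnaseh2b 5, and Cpne5 in libraries labelled Atm only without control 2. For P28 Rnaseh2b/Atm, leaving out a library gave 9887 to 10822 genes against control, 7490 to 8343 against Rnaseh2b and 9512 to 10272 against libraries labelled Atm. Counts of the 10 are not given for these comparisons or at P5, since those values chose the genes. At P5 the range was 1 to 251 genes for Rnaseh2b, 0 to 1 for Atm and 3 to 37 for p53. It was 688 to 4023 for Rnaseh2b/Atm and 20 to 190 for Rnaseh2b/p53.

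At P5 with only the groups compared, 0 genes were called for Rnaseh2b (105 otherwise), 3 for p53 (27), 42 for Rnaseh2b/Atm (1520) and 29 for Rnaseh2b/p53 (66). Voom gave 57 and 68 (median-of-ratios factors) for Rnaseh2b and 16 for p53, and a filter of 5 CPM gave 13 for p53 and 38 for Rnaseh2b/p53. Without control 2 and Atm 1, both high for most of the 10 genes, the count for Rnaseh2b/Atm was 6380. The block (replicate pairing) gave 13 for p53, and moved no count of the 10 at 9 weeks or for P28 libraries labelled Atm.

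The sign turned in 4 cases. Shox2 in P28 Rnaseh2b ranged from -0.0254 (without control 2) to 2.70 (without Rnaseh2b 5). Pou4f1 in libraries labelled Atm was at 0.57 with quantile normalization and ranged from -0.79 (without control 2) to 0.16 (without control 1 or control 4). Causes were not tested. Shox2, Lhx2, Pax7, Gata3 and Pou4f1 had 0 to 3 reads in at least 1 P28 library each, which limits the precision of their log2 values there. Values at P5 and in P28 Rnaseh2b/Atm chose the genes, and Pou4f1, Pax7 and Gata3 met the P28 filter only with Rnaseh2b/Atm.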

Other observations

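Th, tyrosine hydroxylase, the enzyme that starts catecholamine synthesis, was the gene of the ventral midbrain list with the largest difference at P28. It was at 9.00 ± 0.17 log2 CPM in Rnaseh2b/Atm, 2.48 ± 0.61 in Rnaseh2b and 1.29 ± 0.19 in libraries labelled Atm, against 1.90 ± 0.45 in control (SD, n = 5 each), a difference from control of 7.10 ± 0.23 log2 in Rnaseh2b/Atm (limma, SE). Of the other genes on that list, Nr4a2 and En1 were tested at P28 and not called in that comparison, and Lmx1b averaged -0.12 ± 0.39 log2 CPM in Rnaseh2b/Atm, below the filter. At 9 weeks Th rose by 0.77 ± 0.16 log2 in Rnaseh2b (limma, adjusted p = 0.00477). At P28 Otx2, a homeobox factor of midbrain and choroid plexus, was higher by 1.01 ± 0.15 log2 in Rnaseh2b/Atm, while the sum of the choroid plexus genes varied from 310 to 2969 CPM in Rnaseh2b/Atm and from 28.4 to 615 in control.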
